A study of Rattus norvegicus with 20 samples.

Results

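The DNA replication and nucleotide synthesis genes described here are 38 named genes of origin licensing, the replicative helicase, the DNA polymerases, the sliding clamp, nucleotide supply, chromatin assembly and the replication checkpoint. They were chosen by name and by function, with earlier results of these data known. Counts and medians over the list are therefore descriptions and no test of it. Of the 38 genes, 35 were measured among 14217 genes in primary rat islets, the hormone-secreting cell clusters of the pancreas. Gins2 and Cdc6 had no probe set with 1 gene name, and Rrm2 appeared only on probe sets shared with a second gene name and was not used. Each gene is represented by its brightest probe set over all arrays, and every level below is a log2 intensity.

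Islets came from male Wistar rats aged 8 weeks and were cultured in RPMI medium with 10% serum and 8 mM glucose. There were 4 groups of 5 arrays: islets left untreated, and islets given an adenovirus labelled as carrying GFP, Nr4a1 or Nr4a3. Virus was present for 18 h and islets were collected 48 h after it was added. Nr4a1 and Nr4a3 are orphan nuclear receptors, and the stated question was whether they raise cell cycle genes of a beta cell proliferation pathway. The protocol text of the labels names other viruses, beta-galactosidase and Nkx6.1, while titles and sample traits name GFP, Nr4a1 and Nr4a3; the groups follow the titles. Islets are a mixture of beta, other endocrine, vascular and remaining exocrine cells, and the labels used here do not state the promoter of each virus, the share of cells it reached or the number of animals behind an array. P-values therefore measure only the spread between these samples. In whole islets, more cells that copy DNA and more RNA per cell cannot be told apart.

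Before a cell copies its DNA, origin recognition proteins, Cdc6 and Cdt1 load the ring-shaped Mcm2 to Mcm7 helicase onto origins. Cdc45 and the GINS complex switch the helicase on, primase and polymerase alpha start each strand, and polymerases delta and epsilon extend it on the PCNA clamp. Ribonucleotide reductase, thymidylate synthase and thymidine kinase supply the nucleotides, and chromatin assembly factors place new histones. Many of these genes are E2F targets, switched on together as a cell leaves G1, and adult beta cells are mostly quiescent.

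Promoter sequence is shown first because these genes were measured together under 2 transcription factors. It is not independent of the choice: the genes were chosen by function, and many genes of this function are E2F targets. Their share of E2F-type words is therefore no finding of these arrays. Promoters of 300 bases, 250 before and 50 after the annotated start, came from RefSeq on the GRCr8 rat assembly, and 33 of the 38 genes matched an entry; Orc1, Cdc6, Rrm2, Dscc1 and Mcm4 had none. The words searched on both strands were the E2F-type words TTTGGCGC, TTTCCCGC and TTTGGCGG, the CCAAT box, and AAAGGTCA, the word that Nr4a receptors bind as monomers. Below, capitals mark the E2F-type word as it reads on the strand of the gene, so that GCGCCAAA, GCGGGAAA and CCGCCAAA are the same words on the other strand. The promoters of Mcm5, a helicase subunit (chr19:13488663-13488842, + strand), and Dtl, the substrate receptor of a ubiquitin ligase (chr13:105685892-105686071, - strand), are printed from 150 bases before the start to 30 after it. The other lines are windows of 40 bases around 1 word, in genes that passed the test against GFP in at least 1 comparison (Mcm3, chr9:30733729-30733768, - strand; Gins1, chr3:160184879-160184918, + strand; Pole, chr12:52053641-52053680, - strand; Chaf1a, chr9:961177-961216, + strand) and in Pola1 (chrX:62342504-62342543, - strand) and Clspn (chr5:144134500-144134539, + strand), which did not pass it.
Mcm5: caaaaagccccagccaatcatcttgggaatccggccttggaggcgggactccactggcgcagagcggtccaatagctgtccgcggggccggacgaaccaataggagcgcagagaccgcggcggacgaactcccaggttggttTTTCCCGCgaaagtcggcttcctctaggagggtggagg
Dtl: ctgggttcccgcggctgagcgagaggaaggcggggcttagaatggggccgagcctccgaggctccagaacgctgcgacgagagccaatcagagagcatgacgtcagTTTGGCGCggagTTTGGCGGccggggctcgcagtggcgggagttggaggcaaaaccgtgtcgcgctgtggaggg
Mcm3: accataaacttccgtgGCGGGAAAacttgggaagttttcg
Gins1: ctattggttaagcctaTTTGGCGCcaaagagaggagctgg
Pole: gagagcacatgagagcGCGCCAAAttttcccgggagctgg
Chaf1a: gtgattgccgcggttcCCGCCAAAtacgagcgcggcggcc
Pola1: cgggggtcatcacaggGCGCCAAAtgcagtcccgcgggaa
Clspn: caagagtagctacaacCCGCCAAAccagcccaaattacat

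At least 1 E2F-type word stood in 18 of the 33 promoters, or 54.5%, against 1.9% of all 33469 RefSeq promoters of the same length and 3.21% of 13242 promoters of measured genes. Among 65 promoters of other replication and nucleotide genes the share was 35.4%, and the single word TTTCCCGC was more frequent there, at 21.5%, than in the 33 promoters, at 15.2%. Dtl held 2 of the words within 150 bases of its start, and in Gins1 the words on opposite strands overlap, so that TTTGGCGC runs into its own reverse complement. Of 21 matches, 13 lay between 60 bases before and 50 bases after the start, with the Mcm3, Pole and Mcm10 words across the start itself. CCAAT was present in 66.7% of the 33 promoters and in 37.5% of all promoters. The Nr4a word AAAGGTCA was found in 0 of the 33 and in 1.43% of all promoters, which says only that these letters are not in these windows.

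**Figure D1:**
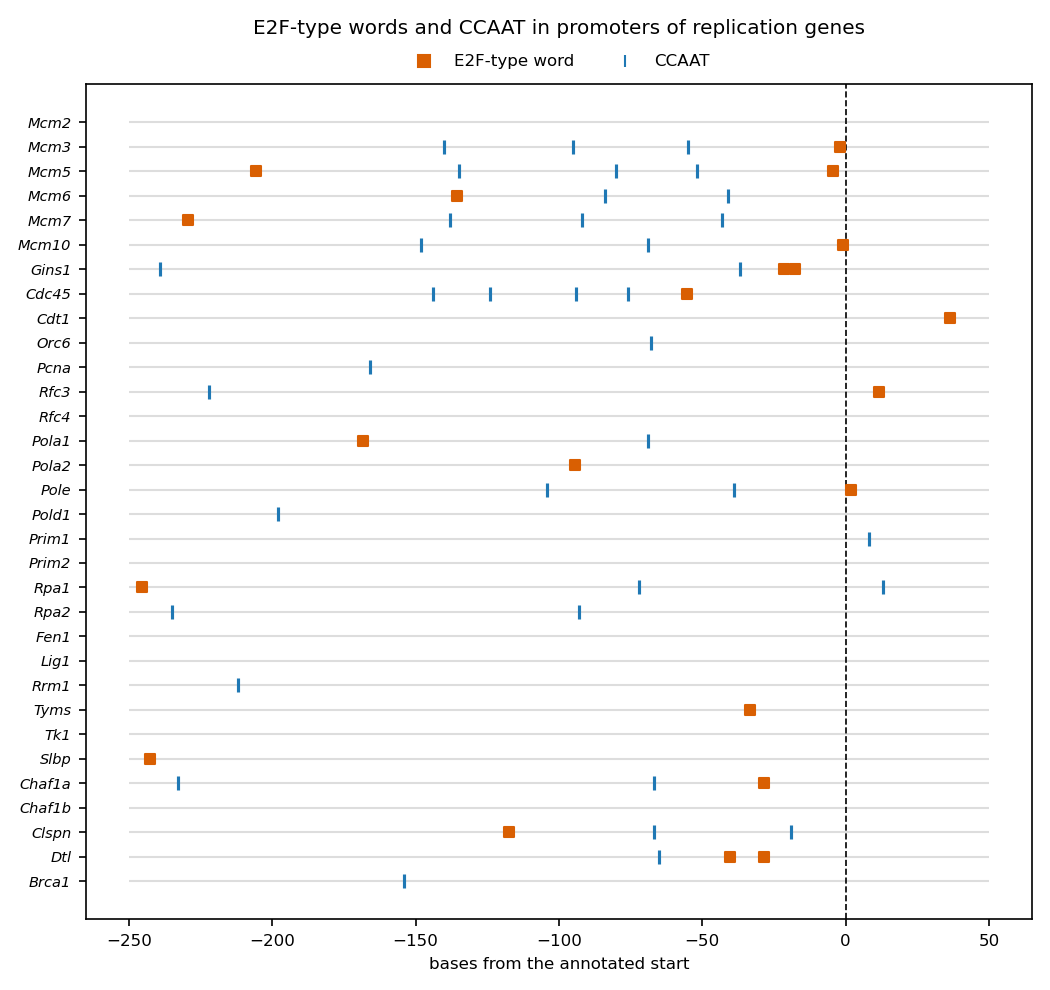
Positions of E2F-type words (squares) and CCAAT (ticks) in the promoters of replication genes, with bases from the annotated start on the horizontal axis and 1 gene per row. Of 21 E2F-type matches, 13 lie between 60 bases before and 50 bases after the start.

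The arrays had median intensities of 98.88 to 103.2, and Ins1 (14.66 to 15.06) and Gcg (14.37 to 14.85), the insulin and glucagon genes that define islet cells, were bright in all 20. The Nr4a1 gene itself read 5.98 to 6.20 in the GFP arrays and 5.82 to 6.11 in the Nr4a1 arrays, and the Nr4a3 gene read 5.45 to 5.83 in GFP and 5.64 to 6.10 in the Nr4a3 arrays. Neither difference passed the test (limma adjusted p = 0.775 and 0.421), whereas the Nr4a3 gene rose in the Nr4a1 arrays by 0.44 ± 0.10 (limma adjusted p = 0.00562). The labels do not say which stretch of each transcript the viruses carry, and these probes may lie outside it, so the values are no check of the labels. Nr4a3 replicate 2 stood apart, with a mean correlation to the other arrays of 0.9407 against 0.9818 to 0.9891 for the rest, and with a 3′ minus 5′ difference of 4.622 for beta-actin, a measure of RNA degradation, against 1.497 to 2.206. Where leaving it out changes a call or moves a count, the value without it is given too. It also enters the shared estimate of spread, so it bears on calls for Nr4a1.

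In the arrays labelled Nr4a1, 17 of the 35 replication genes rose against GFP and none fell. At least 1 gene rose in each functional group described below. Only 1 rose in each of single-stranded DNA and Okazaki fragments, nucleotide synthesis, chromatin assembly, and checkpoint and repair. Without Nr4a3 replicate 2 these counts were 3, 2, 1 and 1. The rises included 5 of 6 helicase subunits, the helicase activators Gins1 and Cdc45, the licensing factors Cdt1 and Orc6, the clamp Pcna and thymidine kinase Tk1. All 35 differences were above 0, from 0.04 for Chaf1b to 1.12 for Mcm6, with a median of 0.42 on the log2 scale, or 1.34-fold, against 0.00 over all genes. The limma threshold for a call is an adjusted p under 0.05, and it was passed upwards by 6.16% of all genes in this comparison. In 18 of the 35, or 51.4%, all 5 Nr4a1 arrays lay above all 5 GFP arrays, against 10.6% of all genes.

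In the arrays labelled Nr4a3, 10 of the 35 rose against GFP and none fell, where 1.75% of all genes were called higher. These were Mcm3, Mcm4, Mcm5, Cdt1, Orc6, Pcna, Pole, Tk1, Chaf1a and Dtl. The 35 differences ran from 0.05 for Chaf1b to 0.78 for Mcm6, with a median of 0.40, or 1.32-fold, against 0.00 over all genes; under a repeated quantile normalisation Chaf1b was at -0.01. In 12 genes, or 34.3%, the lowest Nr4a3 array exceeded the highest GFP array, against 3.12% of all genes. Without Nr4a3 replicate 2, 15 were called against a background of 3.32%, and 19, or 54.3%, did not overlap with GFP against 7.46% of all genes. The Nr4a1 count also moved without that array, to 24, against a background of 12.2%. Both comparisons use the same 5 GFP arrays, so their values are set side by side below and not counted as separate evidence.

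**Figure D2:**
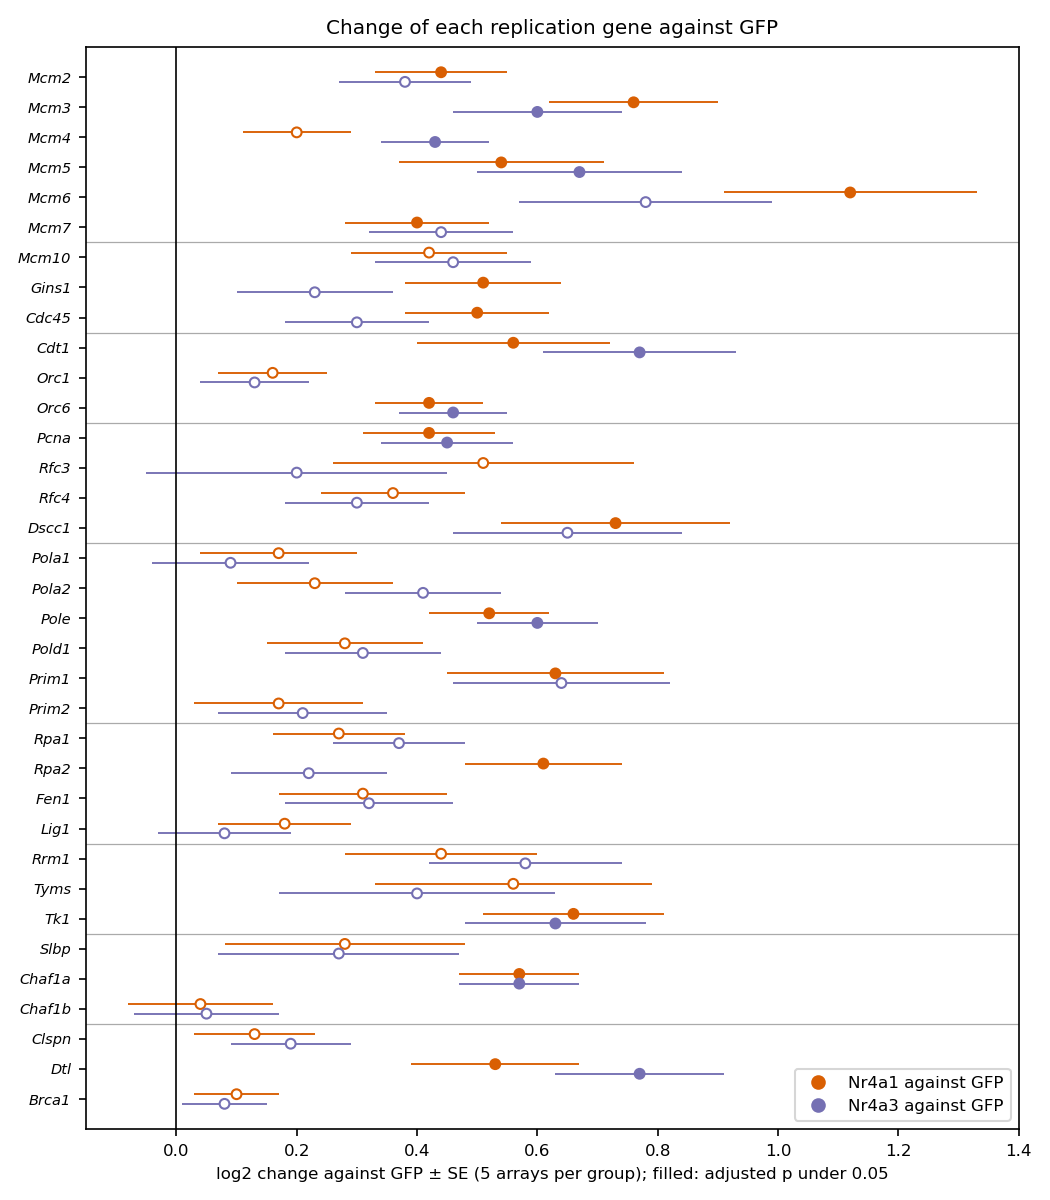
Log2 change against GFP ± SE for each of the 35 measured replication genes (rows), with 5 arrays per group and filled points where the limma adjusted p is under 0.05. All points lie above 0, with medians of 0.42 for Nr4a1 and 0.40 for Nr4a3, and Mcm6 has the highest value in both comparisons.

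Counts moved when single arrays were left out. Where a call is given below as lost without several arrays, each was left out alone, and the value after "up to" is the highest limma adjusted p of the 20 such fits. The Nr4a1 count fell to 10 or 11 without GFP replicate 1 (11), Nr4a1 replicate 1 (10), Nr4a1 replicate 4 (10) or Nr4a1 replicate 5 (11). Over the 20 fits, 4.07% to 12.2% of all genes were called higher with Nr4a1 and 0.809% to 3.32% with Nr4a3. The Nr4a3 count was 6 without GFP replicate 1, 2 or 3, and 5 without GFP replicate 5, Nr4a3 replicate 1 or Nr4a3 replicate 3. The medians moved less, between 0.39 and 0.50 for Nr4a1 and between 0.38 and 0.46 for Nr4a3.

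Averaged over the 35 genes, each centred on its mean over 20 arrays, the Nr4a1 arrays stood at 0.31, 0.11, 0.04, 0.24 and 0.32 and the Nr4a3 arrays at 0.33, 0.13, 0.30, 0.05 and 0.11. The GFP arrays stood at -0.24, -0.15, -0.25, -0.19 and -0.26 and the untreated arrays at -0.18, -0.16, -0.34, -0.17 and 0.02. Every array of the 2 receptor groups was thus above every GFP and untreated array, with Nr4a1 replicate 3 and untreated replicate 5 nearest to each other. Untreated replicate 5 held the highest value of its group in 22 of the 35 genes, and Nr4a1 replicate 3 the lowest of its group in 19. Nr4a3 replicate 2 was uneven, lowest of its group in 15 genes and highest in 11.

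**Figure D3:**
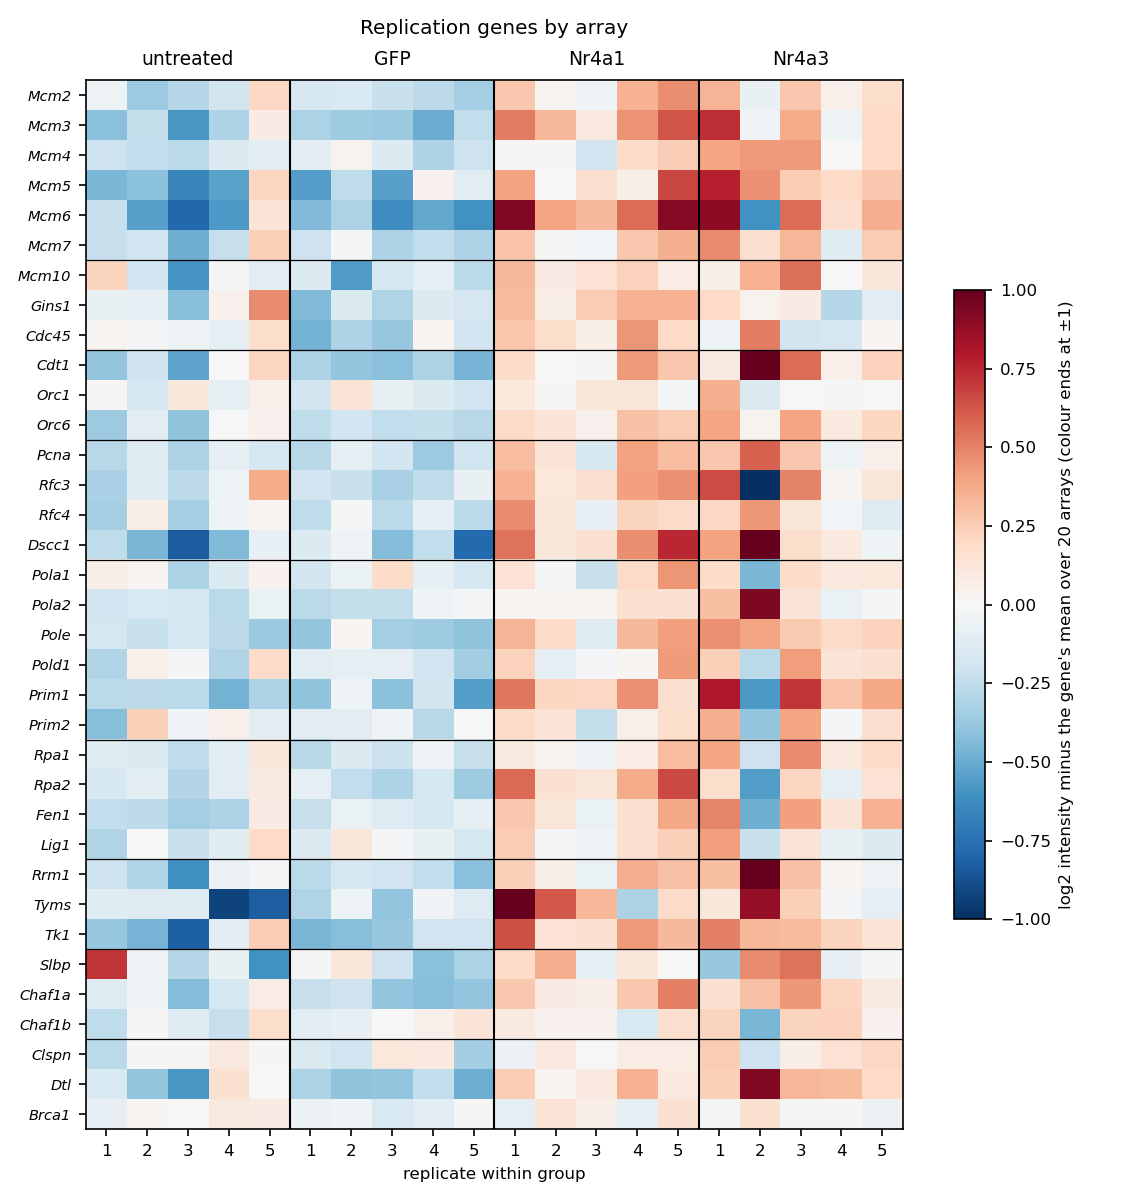
Log2 intensity of each replication gene minus its mean over 20 arrays, with genes in rows and arrays in columns by group and replicate (colour ends at ±1). Most genes are above their mean in the Nr4a1 and Nr4a3 columns, and Nr4a3 replicate 2 holds both the lowest values of its group (15 genes) and the highest (11 genes).

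The Mcm2 to Mcm7 ring is the motor that unwinds DNA, and 5 of its 6 subunits rose in the Nr4a1 arrays (median of the 6, 0.49) and 3 in the Nr4a3 arrays (median 0.52), or 5 without Nr4a3 replicate 2 (median 0.55). Mcm6 read 7.53, 7.22, 6.98, 7.19 and 7.90 in the untreated arrays and 7.32, 7.45, 7.14, 7.25 and 7.16 in the GFP arrays. It read 8.69, 8.16, 8.09, 8.32 and 8.67 in the Nr4a1 arrays and 8.66, 7.16, 8.32, 7.93 and 8.13 in the Nr4a3 arrays. All Nr4a1 arrays exceeded all GFP and untreated arrays, whereas Nr4a3 replicate 2 lay inside the GFP range and the other 4 Nr4a3 arrays above it. Mcm6 was higher than in GFP by 1.12 ± 0.21 in the Nr4a1 arrays (2.18-fold, limma adjusted p = 0.00194), the highest change of the 35 genes. In the Nr4a3 arrays the Mcm6 difference was 0.78 ± 0.21 with an adjusted p of 0.0718, and without replicate 2 it was 1.0 (adjusted p = 0.00265).

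For Mcm3, another subunit of the ring, the GFP arrays were tight. Mcm3 read 6.70, 6.88, 6.54, 6.81 and 7.20 in the untreated arrays and 6.80, 6.76, 6.75, 6.62 and 6.87 in the GFP arrays. It read 7.64, 7.44, 7.22, 7.57 and 7.75 in the Nr4a1 arrays and 7.86, 7.08, 7.49, 7.07 and 7.32 in the Nr4a3 arrays. Neither receptor group overlapped with GFP, and untreated replicate 5 lay above the 2 lowest Nr4a3 arrays. The change was 0.76 ± 0.14 with Nr4a1 (1.69-fold, limma adjusted p = 0.0016) and 0.60 ± 0.14 with Nr4a3 (1.52-fold, adjusted p = 0.0292). The second of these calls was lost without any 1 of GFP replicates 1, 2, 3, 4 and 5 and Nr4a3 replicates 1 and 3, with an adjusted p of up to 0.0815.

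The other 4 subunits of the ring had changes of 0.20 to 0.67. Mcm2 rose by 0.44 ± 0.11 with Nr4a1 (limma adjusted p = 0.0172) and differed by 0.38 ± 0.11 with Nr4a3 (adjusted p = 0.0997), where it was called without replicate 2, at 0.44 (adjusted p = 0.0356). Mcm4 rose with Nr4a3, by 0.43 ± 0.09 (adjusted p = 0.0177), while its difference with Nr4a1, 0.20 ± 0.09, was not called (adjusted p = 0.251). Mcm5 rose by 0.54 ± 0.17 and 0.67 ± 0.17 (adjusted p = 0.0495 and 0.0402), both called. Mcm7 rose by 0.40 ± 0.12 with Nr4a1 (adjusted p = 0.0495), and its Nr4a3 difference of 0.44 ± 0.12 was not called (adjusted p = 0.0768). Calls close to the threshold depended on single arrays. With Nr4a1, the Mcm2 call was lost without Nr4a1 replicates 4 and 5 (up to 0.0526). The Mcm5 call was lost without untreated replicates 1, 2 and 4, GFP replicates 1, 2, 3 and 5, Nr4a1 replicates 1, 3, 4 and 5 and Nr4a3 replicates 3, 4 and 5 (up to 0.138), and the Mcm7 call without untreated replicates 1, 2 and 4, GFP replicates 1, 3, 4 and 5, Nr4a1 replicates 1, 2, 4 and 5 and Nr4a3 replicates 3 and 5 (up to 0.13). With Nr4a3, the Mcm4 call was lost without GFP replicate 5 and Nr4a3 replicates 1 and 3 (up to 0.0601) and the Mcm5 call without untreated replicates 1 and 2, GFP replicates 1, 2, 3 and 5, Nr4a1 replicate 3 and Nr4a3 replicates 1, 3 and 5 (up to 0.126).

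Helicase activation, by Cdc45, the GINS complex and Mcm10, was the step at which 2 of 3 measured genes rose with Nr4a1 (median 0.50) and 0 of 3 with Nr4a3 (median 0.30). These counts were 3 and 0 (medians 0.50 and 0.21) without Nr4a3 replicate 2. Gins1 read 6.45, 6.44, 6.10, 6.57 and 7.0 in the untreated arrays and 6.08, 6.38, 6.22, 6.39 and 6.36 in the GFP arrays. It read 6.84, 6.59, 6.78, 6.87 and 6.87 in the Nr4a1 arrays and 6.72, 6.56, 6.61, 6.24 and 6.42 in the Nr4a3 arrays. Gins1, a GINS subunit, was above all GFP values in every Nr4a1 array, and Nr4a3 replicate 4 fell inside the GFP range. Untreated replicate 5 exceeded all Nr4a1 arrays. The Nr4a1 change was 0.51 ± 0.13 (1.42-fold, limma adjusted p = 0.0154; without GFP replicate 1, 0.0511) and the Nr4a3 difference 0.23 ± 0.13 (adjusted p = 0.49).

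Cdc45 links the ring to GINS in the working helicase. Cdc45 read 8.23, 8.18, 8.15, 8.10 and 8.38 in the untreated arrays and 7.73, 7.89, 7.82, 8.22 and 8.01 in the GFP arrays. It read 8.48, 8.38, 8.27, 8.64 and 8.40 in the Nr4a1 arrays and 8.15, 8.71, 8.02, 8.03 and 8.22 in the Nr4a3 arrays. The Nr4a1 arrays lay above the GFP arrays and overlapped with the untreated ones. Nr4a3 replicate 2 was at 8.71, and the other Nr4a3 arrays stayed within or at the edge of the GFP range. The change was 0.50 ± 0.12 with Nr4a1 (limma adjusted p = 0.01) and 0.30 ± 0.12 with Nr4a3 (adjusted p = 0.276), or 0.17 (adjusted p = 0.378) without replicate 2. The 3 other Cdc45 probe sets did not show the Nr4a1 rise: they differed from GFP by 0.16, 0.04 and 0.00, and none was called. Mcm10, which acts with Cdc45, differed by 0.42 ± 0.13 and 0.46 ± 0.13 without passing the test (adjusted p = 0.0554 and 0.0829), although all 5 arrays of each receptor group lay above all GFP arrays. Mcm10 was called with Nr4a1 (adjusted p = 0.029) once Nr4a3 replicate 2 was left out. A dimmer Mcm10 probe set was called with Nr4a1, at 0.30 (limma adjusted p = 0.0377 over all probe sets). With Nr4a3 that probe set differed by 0.21 and was not called (limma adjusted p = 0.313).

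In origin licensing, Cdt1 and Orc6 rose in both receptor groups and Orc1 in neither. Cdt1 read 5.88, 6.07, 5.75, 6.28 and 6.49 in the untreated arrays and 5.96, 5.88, 5.86, 5.96 and 5.81 in the GFP arrays. It read 6.46, 6.27, 6.29, 6.70 and 6.55 in the Nr4a1 arrays and 6.37, 7.29, 6.84, 6.33 and 6.51 in the Nr4a3 arrays. Cdt1, the factor that brings the helicase ring to origins, was above the GFP range in all 10 receptor arrays, with Nr4a3 replicate 2 the highest. Untreated replicates 4 and 5 lay within the Nr4a1 range, and untreated replicate 5 also within the Nr4a3 range. Its change was 0.56 ± 0.16 with Nr4a1 (1.48-fold, limma adjusted p = 0.0315) and 0.77 ± 0.16 with Nr4a3 (1.71-fold, adjusted p = 0.0137), the latter 0.62 (adjusted p = 0.0127) without replicate 2. The Nr4a1 call was lost without GFP replicates 1, 2, 3, 4 and 5 and Nr4a1 replicates 1, 4 and 5 (up to 0.0922).

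The Orc6 values, of a subunit of the origin recognition complex, showed the narrowest GFP group among the genes given array by array. Orc6 read 7.69, 7.94, 7.65, 8.05 and 8.10 in the untreated arrays and 7.80, 7.86, 7.81, 7.82 and 7.78 in the GFP arrays. It read 8.25, 8.18, 8.10, 8.35 and 8.31 in the Nr4a1 arrays and 8.45, 8.09, 8.45, 8.15 and 8.27 in the Nr4a3 arrays. All 10 receptor arrays lay above the GFP arrays by at least the width of the GFP range, while untreated replicate 5 (8.10) lay level with the lowest of them, Nr4a3 replicate 2 (8.09) and Nr4a1 replicate 3 (8.10). Orc6 rose by 0.42 ± 0.09 with Nr4a1 (limma adjusted p = 0.0064) and by 0.46 ± 0.09 with Nr4a3 (adjusted p = 0.0115), and neither call was lost when any single array was left out. The dimmer Orc6 probe sets differed by 0.28 and 0.61 with Nr4a1, only the first called (limma adjusted p = 0.0457 and 0.202 over all probe sets). With Nr4a3 they differed by 0.25 and 0.30 and were not called (limma adjusted p = 0.168 and 0.667). Orc1, the largest origin recognition subunit, had group means of 3.86 in GFP, 4.03 with Nr4a1 and 3.99 with Nr4a3, and its differences of 0.16 ± 0.09 and 0.13 ± 0.09 were not called (adjusted p = 0.326 and 0.565).

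The clamp and its loaders keep polymerases on DNA, and 2 of 4 rose with Nr4a1 and 1 of 4 with Nr4a3. The counts without Nr4a3 replicate 2 were 4 and 1. Pcna read 11.24, 11.39, 11.21, 11.43 and 11.35 in the untreated arrays and 11.24, 11.43, 11.33, 11.16 and 11.32 in the GFP arrays. It read 11.83, 11.65, 11.36, 11.92 and 11.83 in the Nr4a1 arrays and 11.79, 12.11, 11.79, 11.47 and 11.57 in the Nr4a3 arrays. Pcna, the clamp itself, was above all GFP values in every Nr4a3 array and in 4 of 5 Nr4a1 arrays; Nr4a1 replicate 3 was inside the GFP range. The change was 0.42 ± 0.11 (1.34-fold, limma adjusted p = 0.023) and 0.45 ± 0.11 (1.36-fold, adjusted p = 0.0429). With Nr4a1 the call was lost without GFP replicates 1 and 4 and Nr4a1 replicates 1, 4 and 5 (up to 0.0739). With Nr4a3 it was lost without untreated replicates 1, 2, 3, 4 and 5, GFP replicates 1, 2, 3, 4 and 5, Nr4a1 replicates 1, 2 and 5 and Nr4a3 replicates 1, 2 and 3 (up to 0.11, and 0.0529 without Nr4a3 replicate 2).

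Dscc1, part of an alternative clamp loader that works in sister chromatid cohesion, had wider groups. Dscc1 read 5.96, 5.76, 5.38, 5.77 and 6.13 in the untreated arrays and 6.08, 6.18, 5.78, 5.97 and 5.44 in the GFP arrays. It read 6.76, 6.33, 6.37, 6.68 and 6.97 in the Nr4a1 arrays and 6.62, 7.23, 6.39, 6.31 and 6.17 in the Nr4a3 arrays. Its Nr4a1 arrays all exceeded the GFP arrays, and Nr4a3 replicate 5 lay just under the highest GFP array. Dscc1 rose by 0.73 ± 0.19 with Nr4a1 (1.66-fold, limma adjusted p = 0.0189), a call lost without GFP replicate 5 and Nr4a1 replicates 1 and 5 (up to 0.0619). With Nr4a3 the difference was 0.65 ± 0.19 (adjusted p = 0.0891). Rfc3 and Rfc4, subunits of the main clamp loader, differed by 0.51 ± 0.25 and 0.36 ± 0.12 with Nr4a1 and by 0.20 ± 0.25 and 0.30 ± 0.12 with Nr4a3, and none of these was called. Without Nr4a3 replicate 2, Rfc3 was called with Nr4a3, at 0.54 (adjusted p = 0.0305), and both were called with Nr4a1 (adjusted p = 0.00784 and 0.0192).

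Among the polymerases and primase, Pole stood out as the subunit that passed the test in both receptor groups. Pole read 5.36, 5.31, 5.36, 5.27 and 5.16 in the untreated arrays and 5.14, 5.55, 5.19, 5.18 and 5.13 in the GFP arrays. It read 5.87, 5.72, 5.41, 5.86 and 5.94 in the Nr4a1 arrays and 5.99, 5.93, 5.79, 5.72 and 5.76 in the Nr4a3 arrays. Pole, the catalytic subunit of polymerase epsilon, which copies the leading strand, was above all GFP arrays in every Nr4a3 array. GFP replicate 2 was the highest of its group and lay above Nr4a1 replicate 3. The change was 0.52 ± 0.10 with Nr4a1 (1.44-fold, limma adjusted p = 0.00194) and 0.60 ± 0.10 with Nr4a3 (1.52-fold, adjusted p = 0.00259), and neither call was lost when any single array was left out.

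Prim1 is the catalytic subunit of primase, which lays the RNA primers. Prim1 read 8.60, 8.61, 8.60, 8.40 and 8.56 in the untreated arrays and 8.47, 8.83, 8.46, 8.69 and 8.32 in the GFP arrays. It read 9.40, 9.09, 9.08, 9.33 and 9.03 in the Nr4a1 arrays and 9.67, 8.30, 9.59, 9.16 and 9.26 in the Nr4a3 arrays. The Nr4a1 arrays lay above both control groups, as did 4 Nr4a3 arrays, while Nr4a3 replicate 2 was below every GFP array. Prim1 rose by 0.63 ± 0.18 with Nr4a1 (limma adjusted p = 0.0327; lost without GFP replicates 1, 3 and 5 and Nr4a1 replicates 1, 2 and 4, up to 0.0974). With Nr4a3 the difference was 0.64 ± 0.18 (adjusted p = 0.0794), and 0.87 (adjusted p = 0.00034) without replicate 2. Pola1 and Pola2 of polymerase alpha, Pold1 of polymerase delta and Prim2, the regulatory primase subunit, were not called in either comparison. Their differences ran from 0.17 (Pola1 and Prim2) to 0.28 (Pold1) with Nr4a1 and from 0.09 (Pola1) to 0.41 (Pola2) with Nr4a3. Pola2 was called with Nr4a1 (adjusted p = 0.0284) when Nr4a3 replicate 2 was left out. Counts for the 6 genes were then 3 with Nr4a1 and 2 with Nr4a3, against 2 and 1 with all arrays.

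Of the genes for single-stranded DNA and Okazaki fragments, Rpa2 rose with Nr4a1, and 0 of 4 rose with Nr4a3. Leaving out Nr4a3 replicate 2 gave 3 of 4 with Nr4a1 and 2 of 4, Rpa1 and Fen1, with Nr4a3. Rpa2 read 7.15, 7.19, 7.01, 7.19 and 7.40 in the untreated arrays and 7.22, 7.06, 7.0, 7.13 and 6.95 in the GFP arrays. It read 7.87, 7.46, 7.43, 7.68 and 7.97 in the Nr4a1 arrays and 7.48, 6.75, 7.52, 7.22 and 7.45 in the Nr4a3 arrays. Rpa2, a subunit of the replication protein A complex that coats single-stranded DNA, was above all GFP arrays in every Nr4a1 array. Nr4a3 replicate 2 was below every GFP array and the other Nr4a3 arrays were at or above the top of the GFP range. The Nr4a1 change was 0.61 ± 0.13 (1.53-fold, limma adjusted p = 0.00554) and the Nr4a3 difference 0.22 ± 0.13 (adjusted p = 0.535), or 0.35 (adjusted p = 0.0752) without replicate 2.

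Rpa1, the large subunit of the same complex, did not pass the test in either comparison. Rpa1 read 8.08, 8.07, 7.95, 8.09 and 8.32 in the untreated arrays and 7.93, 8.06, 7.99, 8.17 and 7.97 in the GFP arrays. It read 8.29, 8.24, 8.16, 8.28 and 8.51 in the Nr4a1 arrays and 8.60, 8.0, 8.68, 8.30 and 8.39 in the Nr4a3 arrays. Nr4a1 replicate 3 and Nr4a3 replicate 2 lay inside the GFP range and the other 8 receptor arrays above it. The differences were 0.27 ± 0.11 with Nr4a1 (limma adjusted p = 0.14) and 0.37 ± 0.11 with Nr4a3 (adjusted p = 0.0901), the latter 0.47 (adjusted p = 0.0054) without replicate 2. Fen1, the flap nuclease of Okazaki fragments, differed by 0.31 ± 0.14 and 0.32 ± 0.14, and Lig1, the ligase that joins them, by 0.18 ± 0.11 and 0.08 ± 0.11. None was called with all arrays. Without Nr4a3 replicate 2, Fen1 with Nr4a3 was 0.49 (adjusted p = 0.00685), and Rpa1 and Fen1 were called with Nr4a1 (adjusted p = 0.0274 and 0.0186).

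Nucleotide synthesis was represented by Tk1, Rrm1 and Tyms, with medians of 0.56 with Nr4a1 and 0.58 with Nr4a3, the latter 0.40 without Nr4a3 replicate 2. Tk1 read 7.83, 7.74, 7.39, 8.10 and 8.45 in the untreated arrays and 7.75, 7.78, 7.83, 8.01 and 8.01 in the GFP arrays. It read 8.84, 8.35, 8.36, 8.63 and 8.53 in the Nr4a1 arrays and 8.71, 8.54, 8.52, 8.43 and 8.34 in the Nr4a3 arrays. Tk1, thymidine kinase of the salvage route to thymidylate, was above the GFP range in all 10 receptor arrays, and untreated replicate 5 lay among them. It rose by 0.66 ± 0.15 with Nr4a1 (1.58-fold, limma adjusted p = 0.00567) and by 0.63 ± 0.15 with Nr4a3 (1.55-fold, adjusted p = 0.0268). A dimmer Tk1 probe set rose by 0.94 and 0.90 and was called in both comparisons. The dimmest Tk1 probe set differed by 0.24 with Nr4a1 and 0.13 with Nr4a3. It was called in neither comparison (limma adjusted p = 0.215 and 0.646 over all probe sets). On the brightest Tk1 probe set, the Nr4a3 call was lost without GFP replicates 1, 2, 3 and 5. It was also lost without Nr4a3 replicates 1 and 3 (up to 0.0772).

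Rrm1 is the large subunit of ribonucleotide reductase, which makes deoxyribonucleotides. Rrm1 read 8.0, 7.91, 7.60, 8.15 and 8.19 in the untreated arrays and 7.94, 8.04, 8.02, 7.96 and 7.79 in the GFP arrays. It read 8.45, 8.27, 8.14, 8.57 and 8.50 in the Nr4a1 arrays and 8.51, 9.25, 8.50, 8.24 and 8.16 in the Nr4a3 arrays. Neither receptor group overlapped with GFP, but untreated replicate 5 lay within both, and Nr4a3 replicate 2 was the highest array. The differences of 0.44 ± 0.16 and 0.58 ± 0.16 were not called (limma adjusted p = 0.102 and 0.0652), nor was the Nr4a3 difference without replicate 2, 0.40 (adjusted p = 0.0551). The Nr4a1 difference was called without that array (adjusted p = 0.00736). Tyms, thymidylate synthase, differed by 0.56 ± 0.23 and 0.40 ± 0.23 (adjusted p = 0.158 and 0.492), with standard errors among the widest of the group.

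In chromatin assembly, Chaf1a rose in both comparisons, and Chaf1b and Slbp were not called in either. Chaf1a read 6.46, 6.54, 6.15, 6.41 and 6.66 in the untreated arrays and 6.36, 6.38, 6.19, 6.16 and 6.19 in the GFP arrays. It read 6.86, 6.67, 6.65, 6.86 and 7.09 in the Nr4a1 arrays and 6.74, 6.88, 7.02, 6.80 and 6.68 in the Nr4a3 arrays. Chaf1a, the large subunit, was above the GFP range in all 10 receptor arrays, and untreated replicate 5 lay among the lowest of these. It rose by 0.57 ± 0.10 with Nr4a1 (limma adjusted p = 0.000943) and by 0.57 ± 0.10 with Nr4a3 (adjusted p = 0.0039), and neither call was lost when any single array was left out.

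Chaf1b, the middle subunit, had the lowest change of the 35 genes in both comparisons. Chaf1b read 4.70, 4.96, 4.82, 4.72 and 5.13 in the untreated arrays and 4.84, 4.87, 4.95, 5.0 and 5.08 in the GFP arrays. It read 5.04, 4.99, 4.99, 4.80 and 5.12 in the Nr4a1 arrays and 5.17, 4.49, 5.17, 5.18 and 4.99 in the Nr4a3 arrays. All 4 groups overlapped, and Nr4a3 replicate 2 was the lowest array. The differences were 0.04 ± 0.12 and 0.05 ± 0.12 (limma adjusted p = 0.932 and 0.879). Whether Chaf1a and Chaf1b changed by different amounts was not tested.

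Slbp binds the stem-loop of histone mRNAs and is needed for histone supply. Slbp read 8.0, 7.24, 7.0, 7.21 and 6.68 in the untreated arrays and 7.27, 7.40, 7.08, 6.87 and 6.97 in the GFP arrays. It read 7.48, 7.64, 7.19, 7.41 and 7.29 in the Nr4a1 arrays and 6.91, 7.76, 7.83, 7.20 and 7.27 in the Nr4a3 arrays. The 4 groups overlapped, and untreated replicate 1 had the highest value of all. The differences of 0.28 ± 0.20 and 0.27 ± 0.20 were not called (limma adjusted p = 0.506 and 0.595).

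Of the checkpoint and repair genes, Dtl rose in both comparisons, and Clspn and Brca1 in neither. Dtl read 6.16, 5.93, 5.73, 6.47 and 6.31 in the untreated arrays and 6.0, 5.91, 5.92, 6.07 and 5.83 in the GFP arrays. It read 6.56, 6.34, 6.41, 6.66 and 6.41 in the Nr4a1 arrays and 6.55, 7.24, 6.65, 6.63 and 6.51 in the Nr4a3 arrays. Dtl, which directs a ubiquitin ligase to Cdt1 and other PCNA-bound proteins, was above the GFP range in all 10 receptor arrays, with Nr4a3 replicate 2 far above the rest. Untreated replicate 4, at 6.47, lay above Nr4a1 replicates 2, 3 and 5. It rose by 0.53 ± 0.14 with Nr4a1 (1.45-fold, limma adjusted p = 0.0179) and by 0.77 ± 0.14 with Nr4a3 (1.71-fold, adjusted p = 0.00438), the latter 0.64 (adjusted p = 0.00291) without replicate 2. The Nr4a1 call was lost without Nr4a1 replicates 1 and 4 (up to 0.0559).

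Brca1 acts in recombination repair and fork protection. Brca1 read 3.95, 4.06, 4.03, 4.12 and 4.11 in the untreated arrays and 3.97, 3.99, 3.88, 3.92 and 4.04 in the GFP arrays. It read 3.94, 4.17, 4.10, 3.94 and 4.18 in the Nr4a1 arrays and 4.02, 4.18, 4.02, 4.04 and 3.97 in the Nr4a3 arrays. Its values were near the bottom of the intensity scale and overlapped in all 4 groups. Differences were 0.10 ± 0.07 and 0.08 ± 0.07 (limma adjusted p = 0.448 and 0.62), and those of Clspn, the checkpoint mediator claspin, 0.13 ± 0.10 and 0.19 ± 0.10 (adjusted p = 0.537 and 0.449).

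**Figure D4:**
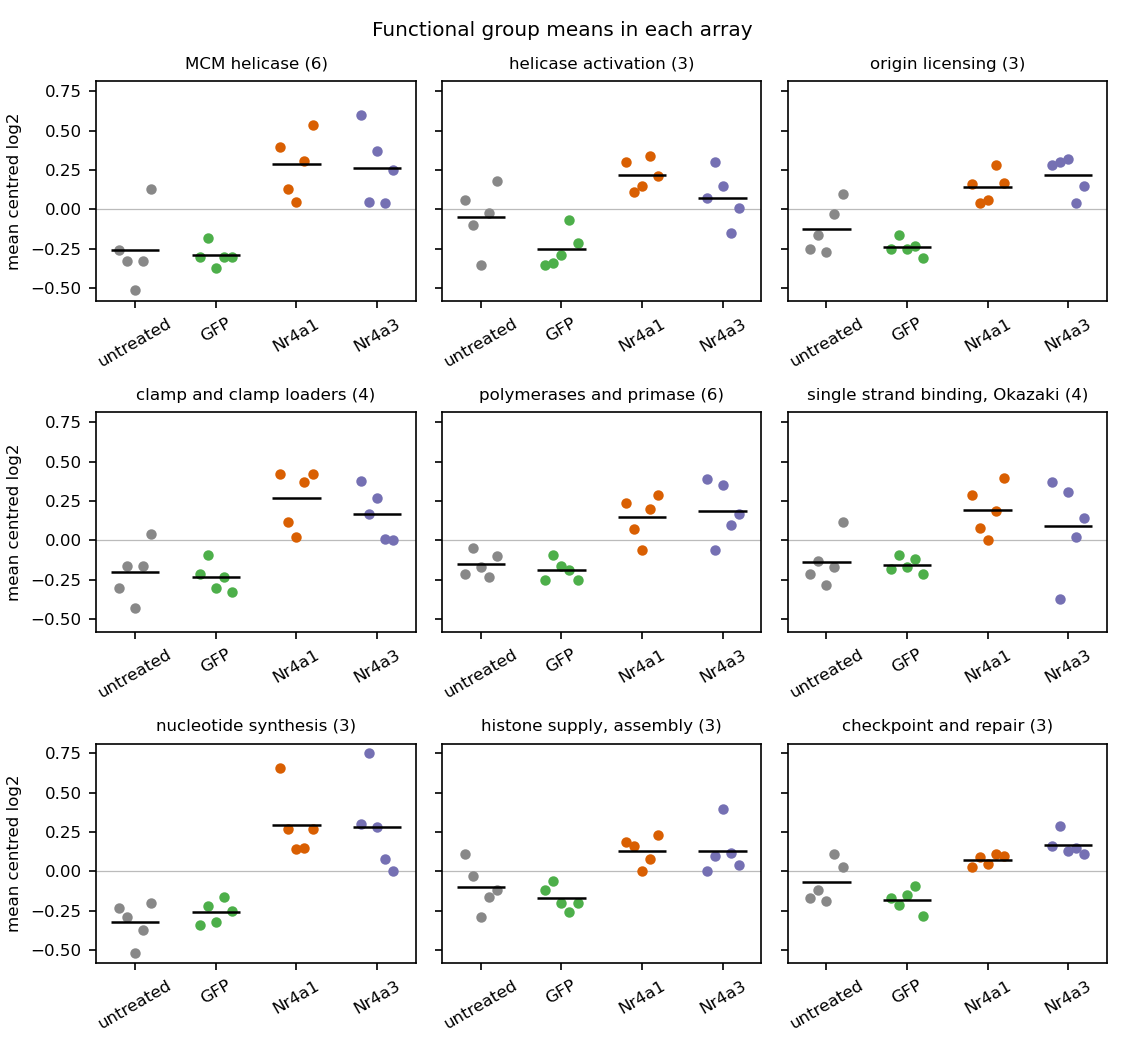
Mean centred log2 level of each functional group (panel titles give the number of genes) in each array, by treatment. The Mcm panel runs from -0.37 to -0.18 in GFP, from 0.05 to 0.54 with Nr4a1 and from 0.04 to 0.60 with Nr4a3.

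With respect to the promoter words shown above, 32 measured genes had a promoter. Of the 18 with an E2F-type word, 10 rose with Nr4a1 (median 0.51) and 6 with Nr4a3 (median 0.42); of the 14 without one, 6 rose with Nr4a1 (median 0.39) and 3 with Nr4a3 (median 0.32). With Nr4a3 replicate 2 left out, the counts were 14 and 9 of 18 with a word, and 9 and 5 of 14 with none. The word TTTGGCGC was in 8 promoters, those of Mcm5, Mcm6, Gins1, Cdt1, Pola1, Pole, Tyms and Dtl. Of these genes 6 rose with Nr4a1 and 4 with Nr4a3 (6 and 5 without Nr4a3 replicate 2). Of the 24 genes without it, 10 and 5 rose (17 and 9 without that array). For TTTGGCGG, 3 and 2 of 7 genes with the word rose (6 and 3), against 13 and 7 of 25 without it (17 and 11). For TTTCCCGC, 3 and 2 of 5 rose (4 and 3), against 13 and 7 of 27 without it (19 and 11). Pola1 and Clspn carry the same words as Pole and Chaf1a and were not called. Orc6, Tk1 and Rpa2 were called against GFP and hold none of the E2F-type words, although Orc6 and Rpa2 hold CCAAT. These shares are a description, and no test was made of them.

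Set directly against each other, the Nr4a1 and Nr4a3 arrays differed in 0 of the 35 genes at the adjusted threshold in limma, against 0.633% of all genes in either direction. Differences ran from -0.24 for Dtl to 0.39 for Rpa2, with a median of 0.00, which is also the median of all genes. Rpa2, listed above array by array, read higher with Nr4a1 by 0.39 ± 0.13 (limma adjusted p = 0.258). At an unadjusted p under 0.05 there were 3 of the 35 genes, Rpa2 and Gins1 higher with Nr4a1 and Mcm4 higher with Nr4a3. Among all 14217 genes, 1634 met that level, so the 3 are no result about the replication genes. Without Nr4a3 replicate 2, 0 of the 35 were called against 0.935% of all genes, with differences of -0.23 (Prim1) to 0.33 (Cdc45). In that fit 5 of the 35 had an unadjusted p under 0.05, as did 1615 of all 14217 genes. In a fit that weights arrays by quality, which called 1.93% of all genes, 1 gene was called, Cdc45, at 0.32 (limma adjusted p = 0.0472). That call rests on the brightest Cdc45 probe set. In the fit without weights, the other Cdc45 probe sets differed between the receptors by -0.12, -0.05 and 0.02, none called. A p that misses the threshold does not show that the 2 receptors moved these genes alike, and a call in only 1 of the comparisons with GFP is no difference between them.

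Between GFP and untreated islets, 0 of the 35 genes were called in limma, and 0.0% of all genes. The differences ran from -0.27 for Cdc45 to 0.24 for Tyms, with a median of -0.07 against -0.02 for all genes. At an unadjusted p under 0.05 there was 1 replication gene, Cdc45, lower with GFP by 0.27 ± 0.12, and there were 412 genes in all. The 29 other settings tried, listed with the data processing, called 0 as well.

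Against untreated islets, 12 of the 35 rose with Nr4a1 and 6 with Nr4a3, none fell, and the medians were 0.35 and 0.38. Among all genes, 5.35% were called higher with Nr4a1 and 1.23% with Nr4a3. Mcm6 showed the highest Nr4a1 change here too, 1.02 ± 0.21 (limma adjusted p = 0.00464), followed by Dscc1 (0.82 ± 0.19, adjusted p = 0.00889) and Tyms (0.81 ± 0.23, adjusted p = 0.0334). The other Nr4a1 calls, of 0.35 to 0.70, were Mcm3, Mcm5, Orc6, Pcna, Pole, Prim1, Rpa2, Tk1 and Chaf1a. Of the genes of helicase activation, Gins1 and Cdc45 among them, 0 of 3 were called with Nr4a1 against untreated. The checkpoint and repair genes also had 0 of 3. With Nr4a3 the calls were Mcm4 (0.48 ± 0.09), Mcm5 (0.76 ± 0.17), Orc6 (0.39 ± 0.09), Pole (0.55 ± 0.10), Tk1 (0.61 ± 0.15) and Dtl (0.60 ± 0.14), with limma adjusted p-values from 0.00636 to 0.0382. These counts rested on single arrays. The Nr4a1 count was 5 without Nr4a1 replicate 1, 6 without untreated replicate 3, 7 without untreated replicate 1 or Nr4a1 replicate 5, and 21 without Nr4a3 replicate 2, where 11.8% of all genes were called higher. The gains there were Mcm2, Mcm7, Cdt1, Rfc3, Rfc4, Pola2, Fen1, Rrm1 and Dtl. The Nr4a3 count was 2 without untreated replicate 1, 2 or 3 and without Nr4a3 replicate 3, 3 without Nr4a3 replicate 1, and 11 without untreated replicate 5, Nr4a3 replicate 2 or Nr4a3 replicate 4, where 1.19%, 3.24% and 1.82% of all genes were called higher. Of these fits, the one without Nr4a3 replicate 2 gained Mcm3, Mcm6, Prim1, Rpa1 and Fen1. Over the 20 fits the share of all genes ran from 3.74% to 11.8% for Nr4a1 and from 0.598% to 3.24% for Nr4a3.

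Genes of the same processes outside the 38 were counted from a list of 48 replication and 25 nucleotide genes, of which 61 were measured. Among 41 other replication genes, 12 rose with Nr4a1 (median 0.26) and 5 with Nr4a3 (median 0.28), and none fell. Among 20 other nucleotide genes, 2 rose with Nr4a1, Umps and Dut (median 0.07), and 1 with Nr4a3, Prps2 (median 0.06). With 6.16% and 1.75% of all genes called higher, counts this small are no result about these nucleotide genes. Timeless, a fork protection protein, rose by 1.07 ± 0.21 with Nr4a1 and 1.06 ± 0.21 with Nr4a3 (limma adjusted p = 0.0027 and 0.0113). Rpa3, the small subunit of replication protein A, rose by 0.86 ± 0.12 and 0.62 ± 0.12 (adjusted p = 0.00011 and 0.0102), and the clamp loader subunit Rfc2 by 0.48 ± 0.08 and 0.47 ± 0.08 (adjusted p = 0.000846 and 0.00363). The histone chaperone Asf1b rose by 0.92 ± 0.19 and 0.76 ± 0.19 (adjusted p = 0.00371 and 0.0424). The checkpoint kinase Chek1 rose with Nr4a1 by 0.70 ± 0.14 and the GINS subunit Gins4 by 0.89 ± 0.17 (adjusted p = 0.00228 and 0.0023), as did the uracil glycosylase Ung by 0.88 ± 0.19 (adjusted p = 0.00406). Umps, which makes uridine monophosphate, rose with Nr4a1 by 0.53 ± 0.07 (adjusted p = 3.23e-05) and was the only 1 of the 61 that differed between the receptors, higher with Nr4a1 by 0.35 ± 0.07 (adjusted p = 0.0144). For these 61 genes the count with Nr4a1, 14, was 9 without Nr4a1 replicate 4. The count with Nr4a3, 6, was 3 if GFP replicate 1, 2, 3 or 5 was left out, 3 without Nr4a3 replicate 1 or 3, and 11 without Nr4a3 replicate 2 or 4. In the fit without Nr4a3 replicate 2, the Nr4a3 comparison gained Chek1, Gins4, Ung, Umps, Asf1a, Dtymk and Nme1 (limma adjusted p = from 0.0123 for Chek1 to 0.0366 for Umps) and lost Asf1b and Prps2 (0.0634 and 0.0559). The Nr4a1 comparison gained Rfc5, Asf1a, Exo1, Dtymk and Nme1, to 19. The Umps difference between the receptors was not called without Nr4a1 replicate 1.

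Several of the 35 genes have more than 1 probe set, and these were read as a second look at the same RNA. The 11 probe sets not used, of Mcm10, Cdc45, Orc6, Tk1, Slbp and Lig1, differed from GFP by -0.08 to 0.94 with Nr4a1 and by -0.01 to 0.90 with Nr4a3. Of these 11, 3 were called higher with Nr4a1 and 1 with Nr4a3, with p adjusted over all 20826 probe sets. The share called among all probe sets is not given here, so these counts cannot be set against a background. Taking the dimmest probe set of every gene in place of the brightest put Slbp at -0.08 with Nr4a1 and Cdc45 at -0.01 with Nr4a3.

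Markers of other pancreatic cells moved with the same groups. Of 12 measured markers of acinar cells, the enzyme-secreting exocrine cells around islets, 10 rose with Nr4a1 (median 2.64) and 0 with Nr4a3 (median 0.87). Among all genes, 6.16% were called higher with Nr4a1 and 1.75% with Nr4a3. The acinar markers Ptf1a (0.24 ± 0.18) and Bhlha15 (-0.11 ± 0.15) were not called with Nr4a1. The mean log2 level of the 12 acinar markers was 6.86 to 9.22 in GFP, 7.10 to 10.10 in untreated, 9.74 to 10.85 in Nr4a1 and 8.77 to 9.54 in Nr4a3 arrays. GFP replicates 2 and 4, at 8.94 and 9.22, lay within the Nr4a3 range of acinar markers, and their replication gene means of -0.15 and -0.19 lay below every Nr4a3 array. Untreated replicate 5, at 10.10, lay within the Nr4a1 range, and its replication gene mean of 0.02 was the highest of the controls. Of 7 beta cell markers, 3 fell with Nr4a1, Pdx1 (-0.69 ± 0.13), Slc2a2 (-0.56 ± 0.17) and Nkx6-1 (-0.42 ± 0.12), and 0 passed with Nr4a3. The other 4 were not called with Nr4a1: Ins1 (0.0 ± 0.06), Ins2 (-0.01 ± 0.06), Iapp (-0.02 ± 0.10) and Mafa (-0.80 ± 0.26). Of 6 endothelial markers, 5 fell with Nr4a1 and 2 with Nr4a3. Of all 14217 genes, 363 were called lower with Nr4a1 and 25 with Nr4a3. Among the measured markers, 0 of 4 for duct, 0 of 8 for fibroblast and stellate, 0 of 7 for macrophage and leukocyte and 0 of 6 for other islet hormone cells were called in either comparison. Without Nr4a3 replicate 2, the Nr4a1 comparison had 4 beta cell calls, and 1 each among duct, fibroblast and other hormone cell markers, all lower. In that fit 975 of all 14217 genes were called lower with Nr4a1. For GAPDH the 3′ minus 5′ difference lay between 0.271 and 0.357 with Nr4a1 and between 0.499 and 0.739 with GFP. The part of these shifts in the replication gene changes was not tested.

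**Figure D5:**
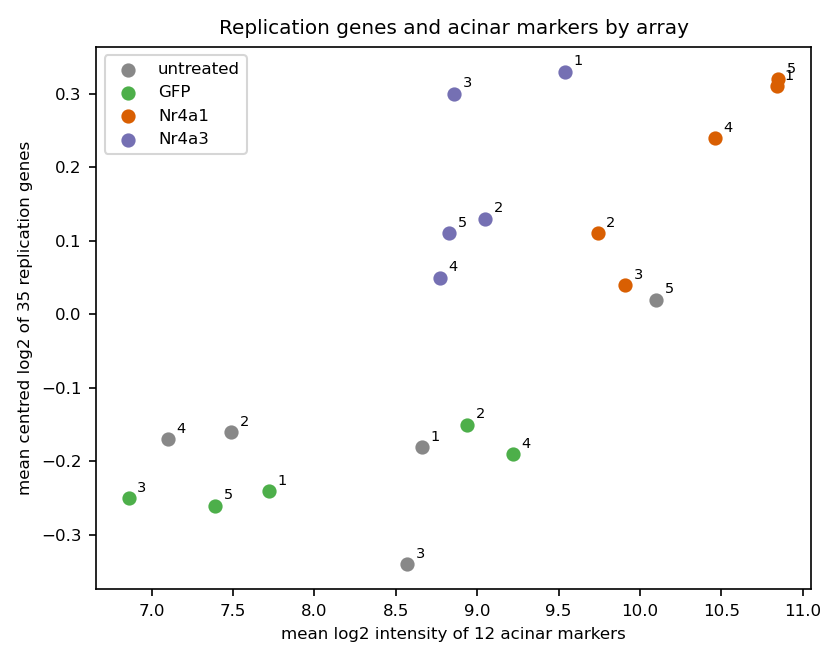
Mean centred log2 level of the 35 replication genes against the mean log2 intensity of 12 acinar markers, 1 point per array, labelled by replicate. Nr4a3 arrays and GFP replicates 2 and 4 share acinar levels near 9 and differ in replication gene means, 0.05 to 0.33 against -0.15 and -0.19. Untreated replicate 5, at an acinar level of 10.10, has the highest replication gene mean of the controls, 0.02. No GFP array reaches the Nr4a1 acinar range (6.86 to 9.22 against 9.74 to 10.85), and the part of acinar content was not tested.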

How the data were processed

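RNA of 20 islet samples was hybridised to 1-colour rat expression arrays, 5 per group. The values are intensities on a linear scale that the authors deposited as the series' value table, processed with RMA per the submitters' processing notes; the notes give no version or settings. A log scale had been assumed when the tests were planned, and intensities were log2-transformed with no further scaling. Of 31099 probe sets, 20832 had 1 gene symbol in the platform annotation, 436 several and 9831 none, and 57 control probe sets were left out of tests. The brightest probe set over all arrays stood for each of 14217 genes.

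In limma 3.58.1 (R 4.3.3), all 20 arrays entered 1 linear model with a mean for each group, with 16 residual and 3.64 prior degrees of freedom. Two-sided moderated p-values were adjusted by Benjamini-Hochberg over all genes of each of 6 comparisons and called at 0.05. A change is the mean of the group named first less that of the other, ± SE. On simulated data with 200 changed genes in the Nr4a1 against GFP design, 63% of changes of 0.5 and 92% of changes of 1 (log2) were recovered.

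The genes and lists were chosen with earlier results of these data known, so no list was tested and none has a p-value of its own. Values in every array are given for the 2 genes with the smallest adjusted p of each functional group and for the lowest change; of other pathway genes, up to 8 with the smallest adjusted p are named. Samples were not paired by replicate number in the reported fit. Over 30 same-numbered pairs the correlation of deviations ran from -0.297 to 0.495, which cannot settle whether same-numbered samples share animals. The 29 alternative settings include 20 that each leave out 1 array. Genome positions were read only from the RefSeq promoter table. The number of arrays limits the precision.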

Additional observations from a re-analysis of the deposited data

Results flagged for a closer look

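Each of the 35 genes was checked in each group of 5 arrays for a value whose gap to the next one was a larger share of the group's range than Dixon's 95% critical value. Of 140 groups 9 met this, where chance gives about 1 in 20. In Nr4a3 replicate 2, the array with the high 3′ minus 5′ difference, there were 4: Cdc45 at 8.71 (others 8.02 to 8.22) and Dtl at 7.24 (6.51 to 6.65) were high, and Pola1 at 5.69 (6.24 to 6.33) and Chaf1b at 4.49 (4.99 to 5.18) low. In untreated replicate 5 there were 2, Mcm5 at 8.25 (7.38 to 7.62) and Fen1 at 8.33 (7.91 to 8.00). The others were Pole in GFP replicate 2, at 5.55 (5.13 to 5.19), Orc1 in Nr4a3 replicate 1, at 4.31 (3.81 to 3.95), and Prim1 in untreated replicate 4, at 8.40 (8.56 to 8.61).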

How the results depend on the processing

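The medians over the replication genes moved by less than the spread between arrays in all 29 settings, and no gene that passed the test changed sign. Counts moved more. For Nr4a3 against GFP (10 called), 5 were called with only the 10 arrays compared, 23 with array weights and 6 with the dimmest probe set, where 0.732%, 5.54% and 1.18% of all genes were called higher (1.75% in the fit reported). For Nr4a1 against Nr4a3 (0), 1 was called with array weights (1.93% of all genes). For Nr4a3 against untreated (6), 1 was called with only the 10 arrays, 12 with array weights and 10 after a repeated quantile normalisation, beside 0.183%, 2.44% and 1.44% of all genes (1.23% in the fit reported). Of the 61 other pathway genes, 23 were called with only the 10 arrays and 24 with array weights for Nr4a1 against GFP (14), 2 and 23 for Nr4a3 against GFP (6), beside 12.7% and 14.0% and 0.732% and 5.54% of all genes higher, and 0 with only the 10 arrays for Nr4a1 against Nr4a3 (1). Non-overlapping genes for Nr4a3 against GFP numbered 19 without Nr4a3 replicate 2 (12 with it; chosen after seeing the data). The cause of these moves was not tested.

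Leaving out 1 array at a time gave 10 to 24 calls for Nr4a1 against GFP, 5 to 15 for Nr4a3 against GFP, 5 to 21 for Nr4a1 against untreated and 2 to 11 for Nr4a3 against untreated. For the other pathway genes the ranges were 9 to 19, 3 to 11 and, between the receptors, 0 to 1. With the replicate number as a block, the counts for the 35 genes were 15, 9, 10 and 5 in the order of the comparisons above. Beside them, 5.52%, 1.34%, 4.81% and 1.08% of all genes were called higher. Only 3 of 20 arrays correlated best with their own number, which leaves unsettled whether same-numbered samples share animals. In the comparisons with GFP, genes that crossed 0 were, none of them called, Cdc45 (-0.01) and Slbp (-0.08) with the dimmest probe set, Chaf1b (-0.01) after repeated quantile normalisation and Lig1 with Nr4a3, which ran from -0.02 without Nr4a3 replicate 1 to 0.14 without Nr4a3 replicate 2. Refits of single genes covered all 35 in the comparisons with GFP and 19 in Nr4a1 against Nr4a3. They covered 20 in GFP against untreated and 21 in each receptor comparison with untreated. Of 4335 refits, 3933 kept direction and side of the threshold, 212 lost a call, 98 gained a call and 92 changed sign uncalled. Of these 92, 47 were in Nr4a1 against Nr4a3, 19 in GFP against untreated and 7 and 15 in Nr4a1 and Nr4a3 against untreated.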
